A study of Mus musculus with 2 samples.

Results

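The genes described here encode kallikreins, other trypsin-like serine proteases, the plasminogen activators, matrix metalloproteases, the Adam and Adamts metalloproteases, and cathepsins. They were chosen by symbol in the array annotation, as every gene named Klk, Mmp, Adam, Adamts, Prss or Tmprss followed by a number, every cathepsin (Cts), and St14, Plau and Plat. This took in 216 probes of 156 genes, out of 16593 genes with a probe. Of the 156 genes, 38 (24.4%) were detected on at least 1 array, against 47.9% of all genes (7955 of 16593), where detected means a detection p below 0.01 relative to negative control beads of the same array. The 118 undetected genes had intensities of at most 217 on the Med1cKO array and 238 on the CON array at their brightest probes.

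Proteases of the epidermis act at its surface and at its base. Kallikreins cut the corneodesmosomes that hold cornified cells together and so release them at the skin surface, and membrane-anchored serine proteases such as matriptase and prostasin are required for barrier formation in the mouse. Matrix metalloproteases and plasminogen activators cut matrix and basement membrane proteins when keratinocytes migrate over a wound, Adam proteases release growth factors from cell membranes, and cathepsins break down proteins mainly in lysosomes.

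RNA came from Med1cKO mice, labelled MED1 fl/fl Cre, in which Cre under the Krt14 promoter removes Med1, a Mediator subunit, from keratin 14 expressing cells, and from CON littermates without Cre, labelled MED1 fl/fl C57BL6. Both groups thus carried the floxed allele, and no age is given in the labels. Per the design text each group was a pool of 3 mice, sorted for integrin alpha6 and against CD34, although the protocol fields also speak of RNA from whole back skin. Each pool was measured on 1 Illumina array, so no replicate error exists, no test was possible and no p-value is given for any difference. Med1 itself had an intensity of 452 in Med1cKO cells and 794 in CON cells, 1.996-fold lower after background correction. Which exons were removed is not stated, so this value does not check the deletion. The median intensity over all 25697 probes was 191 on the Med1cKO array and 198 on the CON array, with 42.7% of the probes detected in Med1cKO and 40.8% in CON. The dimmest detected probe had an intensity of 219 on the Med1cKO array and 239 on the CON array, so a gene had to be brighter to be detected in CON. All 7 basal keratinocyte markers (Krt5, Krt14, Krt15, Itga6, Itgb4, Trp63 and Col17a1) were detected on both arrays. Their log2 ratios, Med1cKO minus CON, had a median of -0.18, with 6 below 0 and 1 above, and none was 1.5-fold different at its brightest probe. Col17a1 had -0.15 by that probe, and -0.25 and -0.73 by its other probes. The last of these had intensities of 15219 in Med1cKO cells and 24983 in CON cells. Suprabasal markers such as Krt10 and Lor were detected on both arrays as well. Cd34, which the sort selected against, had intensities of 279 in Med1cKO cells and 321 in CON cells.

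Intensities below are as deposited and include background. Folds were computed after background correction and quantile normalization, and a log2 ratio is always Med1cKO minus CON. A gene with several probes is given by its brightest probe. Where 1 array alone detected a gene, the fold is a bound, taken against the lowest normalized level of any detected probe on the other array, and is written as at least N-fold. In pooled RNA, fewer cells of a type and less RNA per cell cannot be told apart.

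A minority of the detected proteases differed between the pools, and most of those were higher in Med1cKO cells. At least 2-fold higher were Adam8, Adamts1 and Ctsw, which is 3 of 38 members (7.89%) against 3.95% of all detected genes. The member at least 2-fold lower was Prss23, 1 of 38 (2.63%) against 1.81% of all detected genes. At 1.5-fold, 11 members (28.9%) were higher, against 9.25% of all detected genes, and 2 (5.26%) were lower, against 8.28%. The 11 were Klk7, Klk10, Tmprss7, Mmp2, Mmp14, Adam3, Adam8, Adamts1, Ctsc, Ctsk and Ctsw, and the 2 were Prss23 and Mmp3. The median log2 ratio of the 38 was 0.02, with 21 above 0 and 17 below. That of all detected genes was -0.04, with 3624 above 0 and 4321 below. The centre of the list thus lay near that of all genes while its upper side was spread out. Of the 11, 7 were also at least 1.5-fold higher without background correction, where 5.54% of all genes were.

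**Figure D1:**
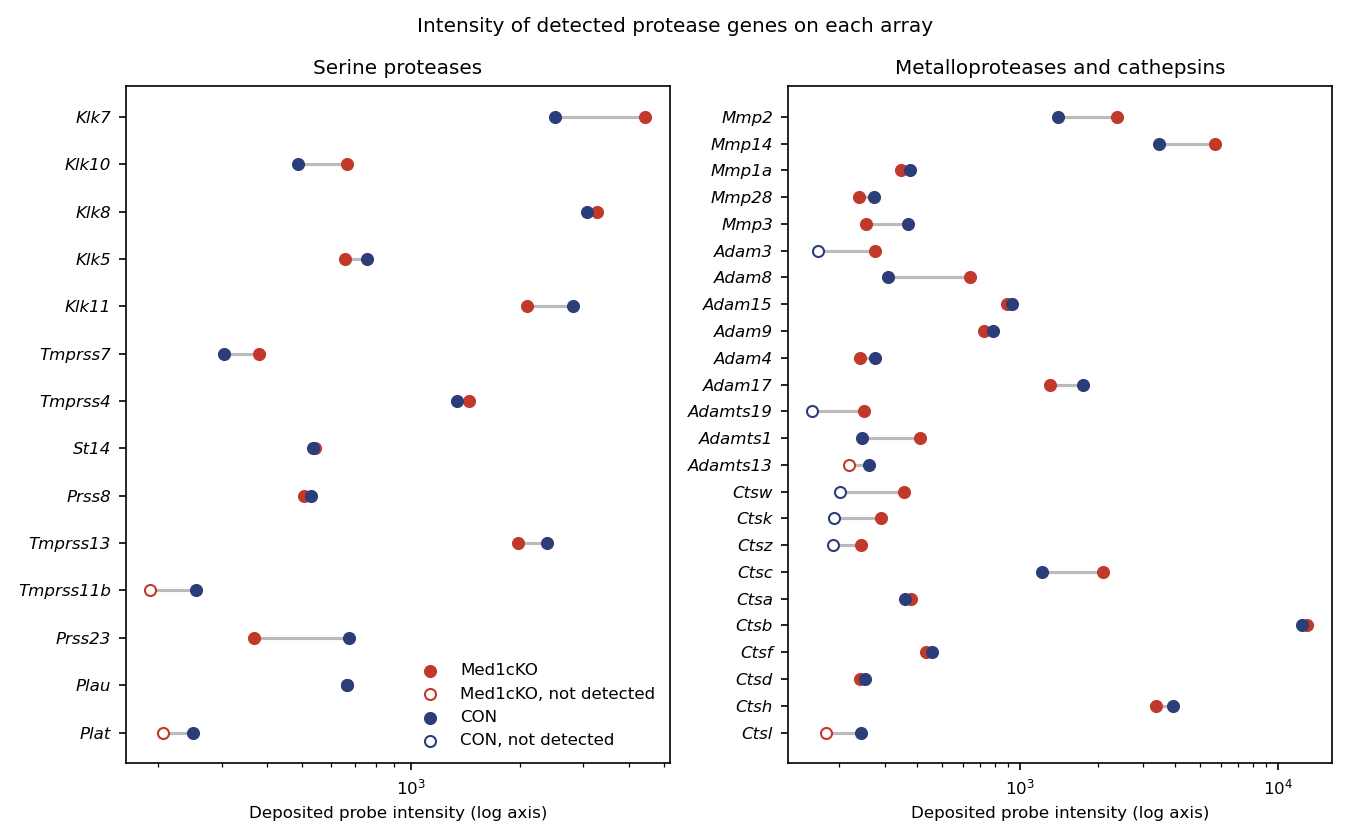
Deposited probe intensity (log axis) of the 38 detected protease genes on the Med1cKO array (red) and the CON array (blue), 1 array each, so there are no error bars; open circles mark values not detected on that array. The Med1cKO point sits to the right for Klk7 (4449 in Med1cKO, 2505 in CON), Mmp14 (5676 in Med1cKO, 3469 in CON) and Ctsc (2104 in Med1cKO, 1221 in CON) and to the left for Prss23 (367 in Med1cKO, 672 in CON), and Ctsb, St14, Prss8 and Plau nearly coincide.

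Of 5 detected kallikreins, 2 were at least 1.5-fold higher and 0 lower, against 9.25% and 8.28% of all detected genes. Klk7, a chymotrypsin-like protease of desquamation, had an intensity of 4449 in Med1cKO cells and 2505 in CON cells, which is 1.91-fold higher (1.85-fold without background correction). Klk10 had 667 in Med1cKO cells and 488 in CON cells, 1.63-fold higher (1.43-fold without background correction). Both sat above the control, and Klk7 barely depended on the correction. Klk5, a trypsin-like protease that activates the Klk7 precursor, had 656 in Med1cKO cells and 758 in CON cells, a log2 ratio of -0.19. Klk8, also called neuropsin, had 3280.2 in Med1cKO cells and 3072 in CON cells (log2 ratio 0.16). Klk11 had 2091 in Med1cKO cells and 2811 in CON cells (log2 ratio -0.39). A second Klk11 probe had -0.31, so both probes of this gene were lower in Med1cKO cells. Klk14, another protease that cuts corneodesmosomes, was detected on neither array (intensities 169 in Med1cKO cells and 174 in CON cells), nor was Klk13.

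The detected kallikreins are neighbours. In the RefSeq annotation of mouse assembly GRCm38.p6, Klk14 to Klk15 form an unbroken run of 12 protein-coding kallikrein genes on chromosome 7, of which 11 were on the array and 5 were detected. In that order the log2 ratios were -0.39 for Klk11, 0.70 for Klk10, 0.16 for Klk8, 0.93 for Klk7 and -0.19 for Klk5. Genes at least 1.5-fold higher, genes less than 1.5-fold different and undetected genes thus lay side by side in this run. The Klk1b genes of the same chromosome, which are near-identical copies of each other expressed in mouse salivary gland, were all undetected (0 of 11).

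**Figure D2:**
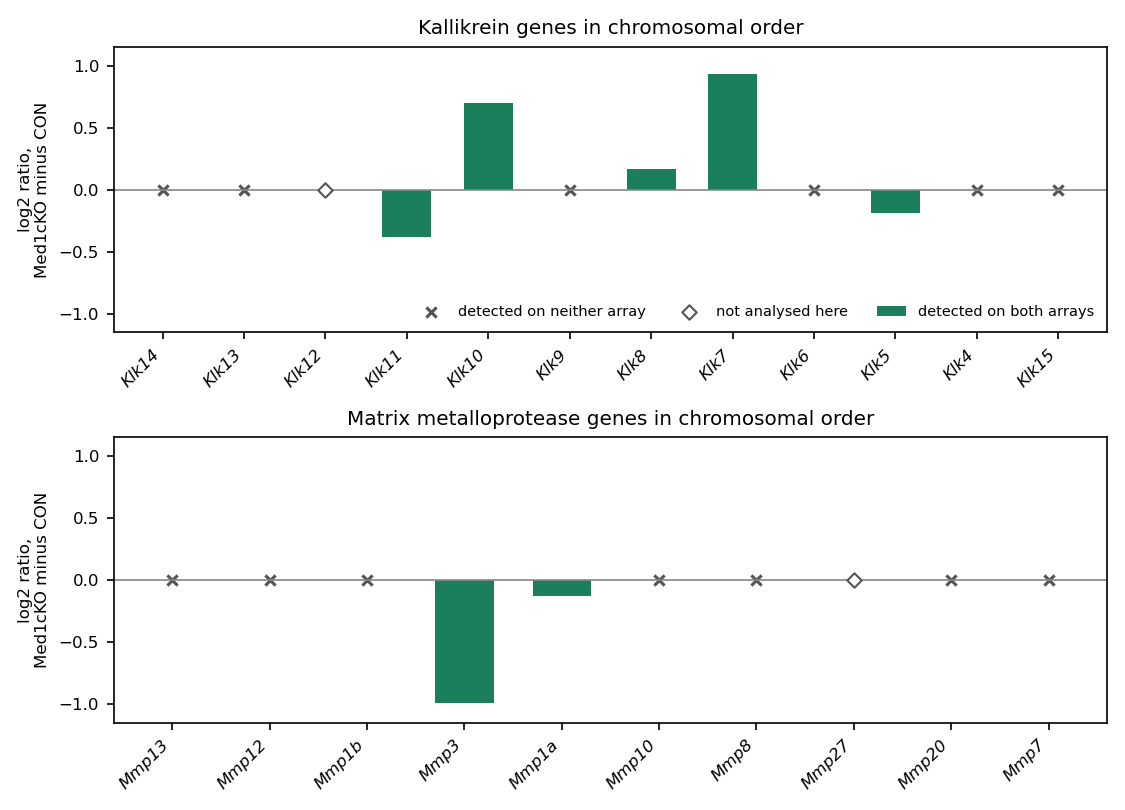
log2 ratio, Med1cKO minus CON, of kallikrein genes on chromosome 7 (top) and matrix metalloprotease genes on chromosome 9 (bottom) in the order of the RefSeq annotation, evenly spaced and not to scale; crosses were detected on neither array and diamonds were not analysed here. Klk10 and Klk7 lie above 0 while Klk11 and Klk5 lie below it, and Mmp3 reaches -0.99 beside Mmp1a at -0.13.

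Of the membrane-anchored serine proteases, St14, Prss8, Tmprss4 and Tmprss13 had similar values in both pools, while Tmprss7 and Tmprss11b, given further below, differed more. St14, which encodes matriptase, had an intensity of 543 in Med1cKO cells and 536 in CON cells (log2 ratio 0.12, and 0.08 by a second probe). Prss8, which encodes prostasin, a protease acting in one pathway with matriptase, had 505 in Med1cKO cells and 530.5 in CON cells (0.00, and 0.33 by a second probe). Tmprss4 had 1451 in Med1cKO cells and 1344 in CON cells (0.20), although its other probe detected on both arrays had -0.05. Tmprss13, which also helps form the epidermal barrier in the mouse, had 1980.3 in Med1cKO cells and 2385 in CON cells (-0.21, and -0.19 by a second probe). None of these 4 genes was 1.5-fold different.

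Prss23, Tmprss7 and Tmprss11b differed more. Prss23, a secreted protease, had an intensity of 367 in Med1cKO cells and 672 in CON cells, 2.28-fold lower (1.76-fold without background correction), or 2.499 times the spread of genes of similar level. That spread is the scaled median absolute deviation of their log2 ratios and is not a replicate error. Tmprss7, also called matriptase-3, had 379.9 in Med1cKO cells and 303 in CON cells, 1.59-fold higher (1.295-fold without background correction). Tmprss11b had 190.1 in Med1cKO cells and 254 in CON cells and was detected in CON cells only, at least 1.36-fold lower. It was the 1 detected gene of a run of 7 Tmprss11 genes on chromosome 5. Across Prss, Tmprss and St14, 7 of 45 genes were detected. Of these, 1 was at least 1.5-fold higher and 1 lower, against 9.25% and 8.28% of all detected genes. Prss22 and Prss27, epithelial serine proteases, were not detected.

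Plasminogen activators turn plasminogen into plasmin, which dissolves fibrin. Plau, the urokinase form that keratinocytes make during wound migration, had an intensity of 665 in Med1cKO cells and 664 in CON cells (log2 ratio 0.09). Plat, the tissue type, had 207 in Med1cKO cells and 249 in CON cells and was detected in CON cells only, at least 1.297-fold lower. The urokinase receptor Plaur was detected on neither array.

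Among matrix metalloproteases, a gelatinase and its activator were higher and a stromelysin was lower. Mmp14, the membrane-bound protease that activates the Mmp2 precursor, had an intensity of 5676 in Med1cKO cells and 3469 in CON cells, 1.698-fold higher. Mmp2, gelatinase A, had 2383 in Med1cKO cells and 1410.0 in CON cells, 1.87-fold higher. Timp2, an inhibitor that also bridges Mmp14 and the Mmp2 precursor during activation, had 1261 in Med1cKO cells and 789 in CON cells, 1.82-fold higher. All 3 components of this activation complex were thus higher in the same pool, and without background correction the folds were 1.67, 1.77 and 1.66. Timp3, another inhibitor, had a log2 ratio of 0.24, and -0.25 by a second probe.

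Mmp3, stromelysin-1, had an intensity of 253 in Med1cKO cells and 369.6 in CON cells, 1.99-fold lower (1.41-fold without background correction). A second probe detected on both arrays had 231 in Med1cKO cells and 373 in CON cells (log2 ratio -1.34), and its last probe, detected in CON cells only, had a measured -1.01. The 3 probes pointed the same way, all close to background. Mmp1a, an interstitial collagenase, had 347 in Med1cKO cells and 377 in CON cells (-0.13) by a probe that could also bind its close copy Mmp1b. A second Mmp1a probe was detected on neither array (171 in Med1cKO cells and 175 in CON cells). Mmp28, epilysin, had 239 in Med1cKO cells and 273 in CON cells (-0.36). The wound-induced Mmp9, Mmp10 and Mmp13 were detected on neither array. In all 5 of 20 Mmp genes were detected. Mmp3 and Mmp1a were the 2 detected genes of a run of 10 Mmp genes on chromosome 9, of which 9 were on the array.

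Adam and Adamts genes held the highest ratios among members detected on both arrays. Adam8, a shedding protease known from leukocytes and from inflamed or wounded tissue, had an intensity of 641 in Med1cKO cells and 309.6 in CON cells, 3.27-fold higher (2.15-fold without background correction), or 3.83 times the spread of genes of similar level. Its second probe had 552 in Med1cKO cells and 304 in CON cells (log2 ratio 1.48). Adamts1, a secreted protease that cuts the proteoglycans aggrecan and versican, had 410.0 in Med1cKO cells and 244 in CON cells, 2.97-fold higher (1.74-fold without background correction). Its CON value was just above the detection limit, and its second probe was detected in Med1cKO cells only (intensities 239 in Med1cKO cells and 186 in CON cells).

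The sheddases with broad expression differed less. Adam17, which releases EGF receptor ligands and tumour necrosis factor from the membrane, had an intensity of 1304 in Med1cKO cells and 1754 in CON cells, a log2 ratio of -0.39. Adam9 had 724 in Med1cKO cells and 789.5 in CON cells (-0.08), and Adam15 had 894 in Med1cKO cells and 934 in CON cells (0.00). Adam10, a sheddase of Notch and cadherins, was not detected by its 1 probe (179 in Med1cKO cells and 155 in CON cells). Of the EGF receptor ligands, which are set free by shedding, Hbegf was 6.90-fold higher, Epgn 2.43-fold higher and Btc had a log2 ratio of -0.13, while Tgfa and Ereg were detected on neither array. Notch1 and Cdh1 had log2 ratios of -0.10 and -0.08.

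The remaining genes of this group lay near background. Adam3, known from sperm, was detected in Med1cKO cells only, at least 1.52-fold higher (at least 1.19-fold without background correction). Its intensities were 275 in Med1cKO cells and 165 in CON cells. Adamts19 was also detected in Med1cKO cells only, at least 1.21-fold higher (248 in Med1cKO cells and 157 in CON cells). Adamts13, the von Willebrand factor protease, was detected in CON cells only, at least 1.44-fold lower (217 in Med1cKO cells and 261 in CON cells). Adam4 had a log2 ratio of -0.34, and its other 2 probes were not detected. Of 29 Adam genes 6 were detected, and of 14 Adamts genes 3.

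Promoters are shown for the Adam, Adamts and kallikrein genes with the highest ratio and the Mmp gene with the lowest ratio among those detected on both arrays, chosen after their values were seen. Each window runs from 250 bases before to 50 bases after the annotated start, 5′ to 3′ on the gene's strand, from RefSeq on GRCm38.p6. Capitals mark matches on either strand to 3 motifs: the AP-1 motif TGANTCA, the TATA box TATAAA and the GC box GGGCGG. The windows are chr7:139992513-139992812 on the minus strand for Adam8, chr16:85803064-85803363 on the minus strand for Adamts1, chr7:43811044-43811343 on the plus strand for Klk7, and chr9:7445572-7445871 on the plus strand for Mmp3.
Adam8: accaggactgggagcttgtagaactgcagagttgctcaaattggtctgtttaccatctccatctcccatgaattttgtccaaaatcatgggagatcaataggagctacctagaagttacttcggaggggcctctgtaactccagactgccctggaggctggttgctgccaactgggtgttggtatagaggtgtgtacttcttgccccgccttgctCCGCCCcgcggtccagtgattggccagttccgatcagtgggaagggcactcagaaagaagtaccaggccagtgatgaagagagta
Adamts1: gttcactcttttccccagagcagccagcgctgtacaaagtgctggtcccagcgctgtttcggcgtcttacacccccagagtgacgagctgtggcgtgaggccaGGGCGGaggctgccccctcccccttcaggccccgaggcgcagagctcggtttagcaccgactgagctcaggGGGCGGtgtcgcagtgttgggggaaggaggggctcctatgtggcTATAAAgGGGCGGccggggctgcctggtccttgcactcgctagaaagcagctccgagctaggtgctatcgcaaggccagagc
Klk7: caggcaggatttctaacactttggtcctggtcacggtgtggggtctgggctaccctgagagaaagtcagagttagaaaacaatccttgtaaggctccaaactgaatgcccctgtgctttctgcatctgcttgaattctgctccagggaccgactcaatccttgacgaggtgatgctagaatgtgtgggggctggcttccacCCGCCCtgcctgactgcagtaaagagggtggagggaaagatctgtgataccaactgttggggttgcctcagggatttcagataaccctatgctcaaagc
Mmp3: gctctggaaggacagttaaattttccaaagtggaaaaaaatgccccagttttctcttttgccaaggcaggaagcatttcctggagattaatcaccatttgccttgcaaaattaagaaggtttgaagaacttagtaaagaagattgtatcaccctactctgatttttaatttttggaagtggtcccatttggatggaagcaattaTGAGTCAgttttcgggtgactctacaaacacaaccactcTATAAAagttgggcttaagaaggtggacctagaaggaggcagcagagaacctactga
The Mmp3 window held 1 AP-1 match and 1 TATA box, and was the one of the 4 with an AP-1 match. The Adamts1 window held 1 TATA box and 3 GC boxes, and those of Adam8 and Klk7 held 1 GC box each. Among 32817 promoter windows of the same length, 7.81% held the AP-1 motif, 13.6% the TATA box and 35.6% the GC box. A match is a stretch of letters and no measurement of binding. Of the 38 detected members, 23 had a window in the table.

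Among cathepsins, Ctsc, Ctsk and Ctsw were at least 1.5-fold higher in Med1cKO cells, Ctsl was detected in CON cells only, and those detected on both arrays other than Ctsc were close to equal. Ctsb, a broadly expressed cysteine protease, had an intensity of 12978 in Med1cKO cells and 12382 in CON cells (log2 ratio 0.03). Ctsh, an aminopeptidase, had 3359 in Med1cKO cells and 3923 in CON cells (-0.18). Ctsf had 432 in Med1cKO cells and 456 in CON cells (-0.02), and Ctsa, a carboxypeptidase that protects lysosomal glycosidases, had 378 in Med1cKO cells and 358 in CON cells (0.21, and -0.18 by a second probe). None of these was 1.5-fold different, and the 2 Ctsa probes detected on both arrays disagreed in sign. The remaining Ctsa probes were detected on neither array.

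Ctsc, the dipeptidyl peptidase that activates granule serine proteases of leukocytes, had an intensity of 2104 in Med1cKO cells and 1221 in CON cells, 1.93-fold higher (1.81-fold without background correction). Its other 2 probes had log2 ratios of 1.02 and 1.25, so all 3 were higher in Med1cKO cells and 2 of them passed 2-fold. Ctsw, a cathepsin of cytotoxic lymphocytes, was detected in Med1cKO cells only, at least 2.496-fold higher (at least 1.54-fold without background correction), with intensities of 356 in Med1cKO cells and 201 in CON cells. Ctsk, a collagen-degrading cathepsin of osteoclasts and fibroblasts, was at least 1.71-fold higher (at least 1.26-fold without background correction). Its intensities were 291 in Med1cKO cells and 191 in CON cells. Ctsz, a carboxypeptidase, was at least 1.13-fold higher by 1 probe (242 in Med1cKO cells and 189 in CON cells), while its second probe was detected on neither array.

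Ctsl, which is needed for hair cycling and normal epidermal growth in the mouse, had an intensity of 178 in Med1cKO cells and 242 in CON cells by its 1 probe and was detected in CON cells only, which bounds it at 1.199-fold lower or more. Ctsd, an aspartic protease, had 241 in Med1cKO cells and 252 in CON cells by its 1 probe (log2 ratio -0.04), just above the detection limit. Ctss, a cathepsin of antigen-presenting cells, was not detected (171 in Med1cKO cells and 176 in CON cells). Of 23 cathepsin genes 10 were detected, with 3 at least 1.5-fold higher and 0 lower, against 9.25% and 8.28% of all detected genes. The 13 undetected genes include placental cathepsins of the mouse such as Ctsj, Ctsm, Ctsq and Ctsr.

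Where a gene had several probes, they served as a check on the measurement. For 9 members, 2 or more probes were detected on both arrays, and for 7 of these all such probes lay on the same side of 0. The exceptions were Ctsa and Tmprss4, both near 0. The highest and lowest log2 ratios of a gene differed by 0.02 (Tmprss13) to 0.39 (Ctsa). Adam8, Ctsc and Mmp3, the 3 of these genes at least 1.5-fold different, each had probes differing by less than their distance from 0.

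**Figure D3:**
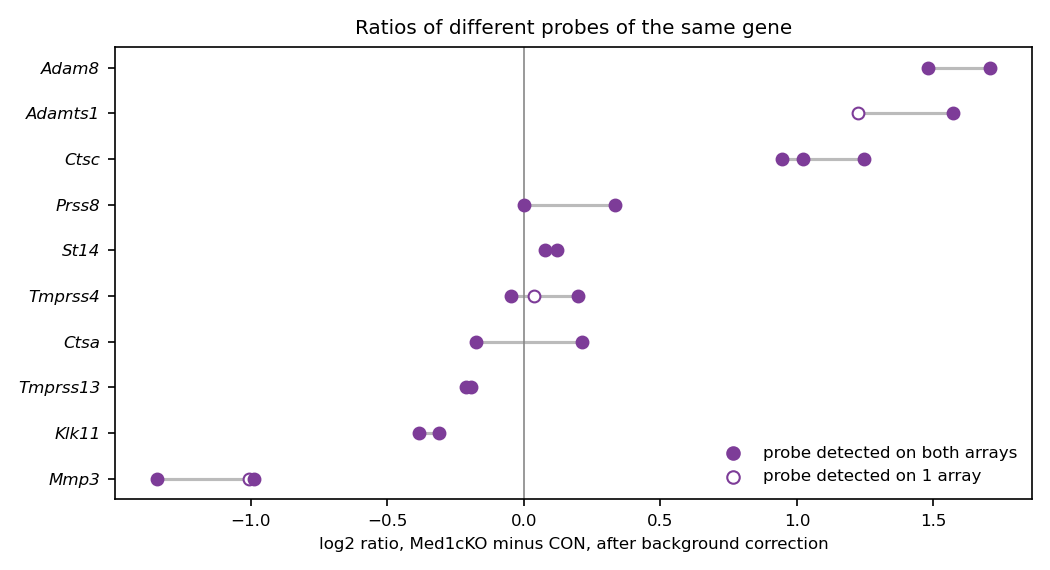
log2 ratio, Med1cKO minus CON, after background correction, of each detected probe for member genes with more than 1 detected probe; filled circles were detected on both arrays and open ones on 1 array, and grey lines join probes of a gene. Both probes of Adam8 and Adamts1 and all 3 of Ctsc lie right of 0, all 3 of Mmp3 lie left of it, and those of Ctsa and Tmprss4 straddle it.

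Background correction set the size of the dim members' ratios. For Klk7, Mmp2, Mmp14 and Ctsc the fold without correction was 1.85, 1.77, 1.67 and 1.81, against 1.91, 1.87, 1.698 and 1.93 with it. For Adamts1, Mmp3 and Prss23 the fold was 1.74, 1.41 and 1.76 without it, against 2.97, 1.99 and 2.28 with it. No member at least 2-fold different changed sign.

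**Figure D4:**
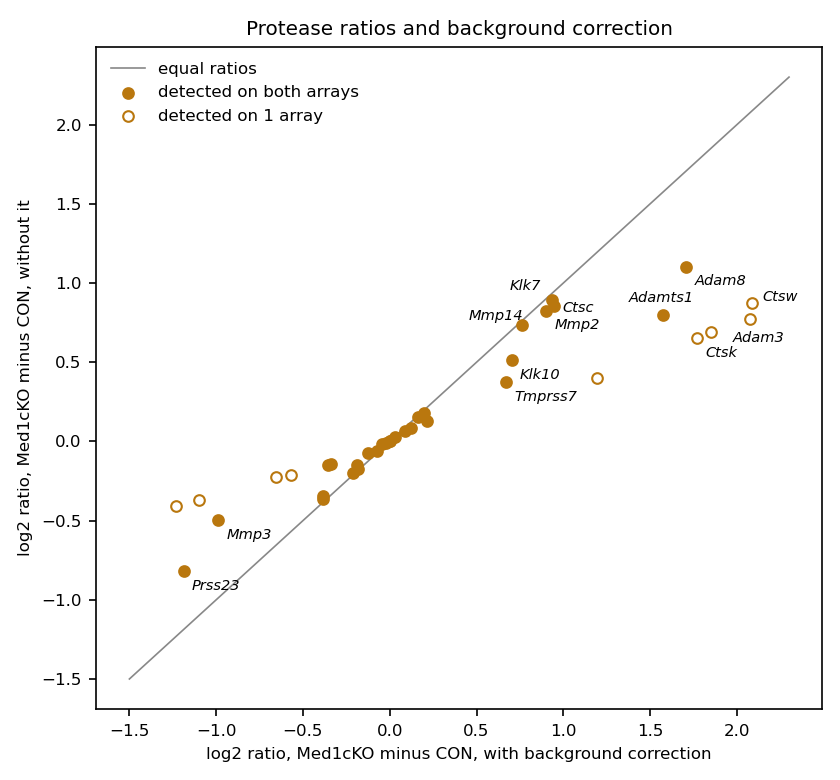
log2 ratio, Med1cKO minus CON, of the 38 detected protease genes with background correction (x axis) and without it (y axis); the line marks equal ratios and open circles were detected on 1 array. Klk7, Mmp2, Mmp14 and Ctsc lie near the line, while Adam8, Adamts1, Ctsw, Ctsk and Adam3 lie well below it.

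Inhibitors, receptors and substrates of these proteases, and proteases outside the naming rule, were compared as lists, beside the 9.25% of all detected genes that were at least 1.5-fold higher and the 8.28% lower. Of 12 detected inhibitors, activators and receptors, 2 were at least 1.5-fold higher (Stfa1 and Timp2) and 2 lower (Itgb1 and Lrp1), with a median log2 ratio of 0.08. Stfa1, a stefin that inhibits cysteine cathepsins, had an intensity of 6846 in Med1cKO cells and 465 in CON cells, and its probe could bind close stefin copies. Cstb and Cst3, other cathepsin inhibitors, had log2 ratios of 0.34 and -0.08. Spint1 and Spint2, membrane inhibitors of matriptase, had -0.26 and 0.01. Lrp1, a receptor that clears proteases bound to their inhibitors, had 294 in Med1cKO cells and 386 in CON cells, 1.54-fold lower (1.27-fold without background correction). Itgb1, an integrin chain, was 1.55-fold lower (1.27-fold without it), but its other detected probe had a log2 ratio of 0.49.

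Of 9 detected substrates, 3 were higher by 1.5-fold or more and 0 lower, against the same shares of 9.25% and 8.28%. They were Hbegf, Epgn and Dsc1, a desmosomal cadherin with an intensity of 394 in Med1cKO cells and 289.9 in CON cells (1.86-fold higher, or 1.41-fold without background correction). Cdsn, the corneodesmosin that Klk5 and Klk7 cut, had 1468 in Med1cKO cells and 2217 in CON cells, a log2 ratio of -0.57. The median log2 ratio of the substrates was -0.10. Of 13 other detected proteases, 3 passed 1.5-fold upward and 0 downward (9.25% and 8.28% of all detected genes), with a median of 0.26. Asprv1, an aspartic protease of the granular layer that processes profilaggrin, had 2344 in Med1cKO cells and 1222 in CON cells, 2.18-fold higher. Capn2, a calpain subunit, was 2.36-fold higher (551 in Med1cKO cells and 331 in CON cells), or 1.73-fold without background correction. Dpp4, a dipeptidyl peptidase, was 1.62-fold higher, or 1.38-fold without it. Furin, which activates many Adam and Mmp precursors, had a log2 ratio of 0.18, and 0.82 by a second probe.

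Detected markers of fibroblasts, antigen-presenting cells and T cells were higher in Med1cKO cells, the pool in which most of the differing proteases were higher. Of 8 fibroblast markers, 6 were detected in Med1cKO cells and 1 in CON cells (Fbln1), with summed intensities of 5147 in Med1cKO cells and 2045 in CON cells, and Col1a2 and Pdgfra were detected in neither. Dcn, a defining fibroblast gene, had an intensity of 2297 in Med1cKO cells and 178 in CON cells, where it was not detected. Of 7 markers of Langerhans cells, macrophages and other antigen-presenting cells with a probe, 6 were detected in Med1cKO cells and 5 in CON cells (summed intensities 4444 in Med1cKO cells and 2712 in CON cells), with Tyrobp in neither. Of 5 T cell markers with a probe, 4 were detected in Med1cKO cells and 3 in CON cells (10962 in Med1cKO cells and 7075 in CON cells), with Cd8a in neither. Thy1, 1.53-fold higher, made up most of both sums (9092 in Med1cKO cells and 5975 in CON cells). Cd3g and Cd3d were 2.74-fold and 2.37-fold higher, and Cd3e, detected in Med1cKO cells only, was at least 3.49-fold higher. Of 3 erythroid markers with a probe, Hba-a1, an alpha globin with close copies, was detected on both arrays, with 2231 in Med1cKO cells and 492 in CON cells (6.46-fold higher). Hbb-b2 (160 in Med1cKO cells and 190 in CON cells) and Alas2 were detected on neither array. Of 5 melanocyte markers, Dct was detected, in Med1cKO cells only (226 in Med1cKO cells and 175 in CON cells). Its bound was 1-fold, so no difference is shown. No neutrophil (0 of 5), mast cell (0 of 4), endothelial (0 of 4), muscle (0 of 5) or adipocyte (0 of 2) marker was detected. The part of fibroblasts in the ratios of Mmp2, Mmp14, Adamts1 and Ctsk, that of immune cells in those of Adam8, Ctsc, Ctsw and Ctsz, and that of erythroid cells or melanocytes in any ratio, was not tested.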

How the data were processed

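RNA of 1 Med1cKO and 1 CON pool was measured on Illumina bead arrays. The authors deposited linear probe intensity values that are not normalized, per the file headers, each with a detection p-value per the file headers. Labelling used biotin and Cy3-streptavidin per the labels' protocols, and the submitters' processing notes name GenomeStudio 2011.1. A second deposited table holds intensities normalized by the authors, with medians of 199 (Med1cKO) and 198 (CON). It is linear, uncentred and ordered as the non-normalized values (rank correlation 1 for both arrays), and how it was normalized is not given in the sources at hand.

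Intensities were corrected, quantile normalized and log2-transformed with neqc (limma 3.58.1, R 4.3.3), with the background inferred from detection p-values and an offset of 16. This step was tested on simulated data in which only bright probes carried known folds, so the test did not cover dim genes. Summaries used Python 3.11.15, numpy 2.4.6, pandas 2.3.3 and matplotlib 3.10.9. Symbols come from the platform annotation. All 156 members matched a RefSeq GRCm38.p6 gene by ID with no symbol changed. Each gene was taken at the probe whose normalized level, averaged over both arrays, was highest. The floors for bounds were 6.20 (Med1cKO) and 6.41 (CON) on the log2 scale. Spread between genes of similar level was taken in 10 bins, around the median of each bin. The distance of a member, given as a multiple of that spread, was measured from the median of all detected genes.

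With 1 array per group there was no test, and precision is limited by the number of arrays. Members at least 1.5-fold different, the 8 members with the highest levels and a list of proteases with known skin roles were named with values, as were partners at least 1.5-fold different. A few further genes, such as Timp3, Spint1, Spint2, Cdsn and Furin, were named after their values were seen. The members and lists were chosen with earlier results of these data known.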

Additional observations from a re-analysis of the deposited data

How the results depend on the processing

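No paired analysis was possible because each group has 1 array. The number of members at least 2-fold higher was 3 of 38, against 3.95% of all detected genes. It was 1 (Adam8) without background correction (1.95% of all genes) and also 1 with the authors' normalized values (2.05%). With a detection p below 0.05 it was 5 of 50, Adam3 and Ctsk added (4.13%), and at a fold threshold of 1.5 it was 11 (9.25%). The number at least 2-fold lower was 1, against 1.81% of all detected genes. It was 0 without background correction (0.55% of all genes) and with the authors' values (0.58%). It was 2 with the mean of detected probes, Mmp3 added (1.83%), and 2 at a threshold of 1.5 (8.28%). The counts at 1.5-fold under other settings were added after seeing the data. They were 11 higher and 2 lower, against 7 and 1 both without background correction and with the authors' values. The shares of all detected genes were 5.54% higher and 3.12% lower without correction, and 5.69% and 3.22% with the authors' values. With a detection p below 0.05, 13 of 50 members were higher and 5 lower, against 9.68% and 9.13% of all genes. Restricted to genes detected on both arrays, 8 of 29 members were higher and 2 lower, against 8.51% and 8.08% of all such genes. Other counts stayed within 1.5 times. The median log2 ratio of the members ranged from 0.00 to 0.08 and moved by less than 0.1 under every alternative run. Of 266 single-gene ratios under 7 alternatives, 20 moved by over 1.5 times, 9 each without background correction and with the authors' values and 2 with an offset of 50. No ratio of a member at least 2-fold different changed sign. Leaving out a replicate was not possible with 1 array per group. Signal over background limits the members detected on 1 array most, since their folds are bounds.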

Other observations

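With a detection p below 0.05, a further 12 members counted as detected, all close to background. That made 50 of 156 members, against 8804 of all 16593 genes. Klk6, an epidermal kallikrein between Klk7 and Klk5, had an intensity of 213 in Med1cKO cells (detection p 0.0175) and 177 in CON cells (detection p 0.228). Mmp9, gelatinase B, had 217 in Med1cKO cells (detection p 0.0113) and 194 in CON cells (detection p 0.123). Mmp19 had 209.9 in Med1cKO cells and 237 in CON cells, and Prss30 had 204 in Med1cKO cells and 238 in CON cells. Of the 12, Adamts5, Adamts8, Klk6, Mmp9 and Tmprss11c had a log2 ratio above 0 and the other 7 below 0.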
